A study of Mus musculus with 2 samples.

Results

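The perilesional rim was the tissue lying within 256 µm of a lesion core in a coronal mouse brain section taken 3 days after controlled cortical impact (CCI). It comprised 8267 bins of 16 µm (2.12 mm²), out of 119617 bins with at least 100 unique molecular identifiers (UMIs, single counted transcripts) in that section and 222933 in both sections of the series. The members were chosen by measured values. A bin belonged to the core when the block of 5 by 5 bins around it held at least 700 CPM (UMIs scaled to an area total of 1000000) summed over the phagocyte genes Cd68, Lyz2, Ctsz, Lgals3, Cd52 and Laptm5, in a connected patch of at least 400 bins on the injured side. A rim bin was any other bin within 16 bins of the core on that side, and these 6 genes were left out of every result. The rim was set against the bins at its mirror positions across the midline. This line was drawn at array column 130, the median column of transcripts of Gbx2, a gene of midline thalamic nuclei. A mirrored bin existed over tissue for 8008 rim bins, and these mirrored bins together are called the mirrored rim. Sums were taken over all 8267 rim bins and over the 8008 mirrored bins. An outer band covered the injured side from 256 to 512 µm from the core.

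The series held 2 groups of 1 section each, from male C57Bl6 mice (C57BL/6 J in the methods of the study) aged 3 months that received a piston impact on the exposed right parietal cortex and were left otherwise untreated for 3 or 28 days. Both groups thus shared anaesthesia, craniotomy and impact, and no sham section was analysed here. Transcripts were counted on 10 µm sections of fixed, paraffin-embedded brain with Visium HD, in which pairs of gene probes are captured on a continuous grid of barcoded squares, so that a bin can hold parts of several cells. The capture area ended inside the injured hemisphere, and the rim began at its edge, column 0. With 1 section per group no difference could be set against variation among animals, and none was tested. Intervals are exact 95% intervals that cover counting error only, and the range over tissue blocks of 256 µm is given to show how even a value was along the rim. Where the blocks of rim and mirrored rim did not overlap, this describes the named gene only. The share of all genes without such overlap is not given. Called genes were those with a CPM ratio of at least 2-fold among genes with at least 50 UMIs over both areas, which are called measured. Counts and medians of a gene list cover its measured members only. A gene that reached 50 UMIs through the rim alone had to be higher there, so these counts and medians are descriptions. For many lists, though not for all, the sum over all members is given as well.

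After a contusion, blood-borne and resident phagocytes gather in the damaged core, while in the tissue around it astrocytes become reactive, microglia change state, vessels are remodelled and surviving neurons respond to cut axons and lost input. Interferon-stimulated genes are transcribed when interferon receptors activate transcription factors such as Stat2 and Irf9. They encode antiviral effectors, further transcription factors such as Irf7, and the chemokine Cxcl10, which attracts lymphocytes.

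**Figure D1:**
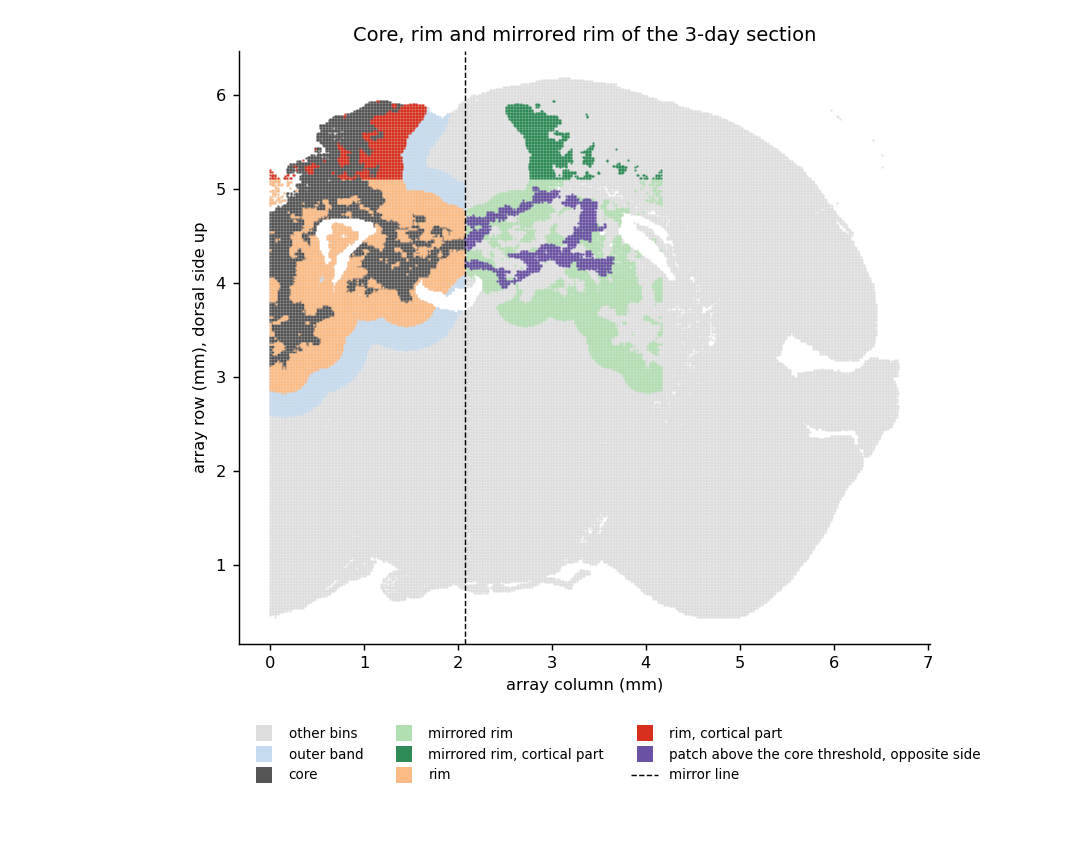
Map of the 3-day section by array column and row (mm), dorsal side up, with each bin of 16 µm coloured by its area. The rim (orange, with its cortical part in red) surrounded the core (dark grey) and ended at the edge of the capture area at the left, the mirrored rim (green) lay to the right of the dashed mirror line, and a patch of 1816 bins on the opposite side (purple) also passed the core threshold.

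The sequences in front of 5 genes are shown because the interferon-stimulated list had its highest sum inside the cortical part of the rim, as described further down, and because such genes are known to share a short promoter element. The 250 bases before the start of each gene were taken from RefSeq on GRCm38.p6 and written on the strand of the gene, with matches to the interferon-response motif TTTCNNTTTC or its reverse complement GAAANNGAAA in capitals. They were, in order, chr4:156200819-156201068 (minus strand), chr19:34583279-34583528 (plus), chr12:26456453-26456702 (minus), chr5:92348890-92349139 (minus) and chr10:128270248-128270497 (plus).
Isg15: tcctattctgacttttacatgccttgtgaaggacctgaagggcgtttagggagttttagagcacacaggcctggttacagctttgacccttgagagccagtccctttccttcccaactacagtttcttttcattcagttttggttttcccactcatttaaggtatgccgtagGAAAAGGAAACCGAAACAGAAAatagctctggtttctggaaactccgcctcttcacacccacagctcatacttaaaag
Ifit3: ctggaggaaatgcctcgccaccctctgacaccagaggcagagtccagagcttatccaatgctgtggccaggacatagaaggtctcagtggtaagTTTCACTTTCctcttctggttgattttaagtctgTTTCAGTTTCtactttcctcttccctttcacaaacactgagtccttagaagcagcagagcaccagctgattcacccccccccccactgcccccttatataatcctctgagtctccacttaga
Rsad2: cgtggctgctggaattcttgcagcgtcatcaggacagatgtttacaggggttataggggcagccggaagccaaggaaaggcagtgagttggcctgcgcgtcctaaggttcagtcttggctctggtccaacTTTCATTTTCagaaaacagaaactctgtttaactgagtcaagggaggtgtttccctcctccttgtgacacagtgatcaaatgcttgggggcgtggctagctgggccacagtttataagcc
Cxcl10: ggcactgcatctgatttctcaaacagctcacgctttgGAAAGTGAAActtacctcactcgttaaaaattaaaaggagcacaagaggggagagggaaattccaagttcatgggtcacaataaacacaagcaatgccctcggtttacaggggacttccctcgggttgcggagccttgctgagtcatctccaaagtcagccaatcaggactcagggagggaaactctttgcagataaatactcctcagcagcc
Stat2: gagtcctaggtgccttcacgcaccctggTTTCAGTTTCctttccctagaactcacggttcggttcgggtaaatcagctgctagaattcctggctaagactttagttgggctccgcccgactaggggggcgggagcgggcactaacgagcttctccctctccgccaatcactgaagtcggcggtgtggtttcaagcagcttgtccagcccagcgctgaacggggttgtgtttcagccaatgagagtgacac

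Isg15 held 3 overlapping matches in 1 run of capitals, Ifit3 held 2, and Rsad2, Cxcl10 and Stat2 held 1 each. Of the 16 genes in the interferon-stimulated list, 13 had a start in the sequence table, and the motif stood before 7 of these (Ifit1, Ifit3, Isg15, Stat2, Bst2, Rsad2 and B2m). It did not stand before Irf7, Irf9, Oasl2, Ifitm3, H2-K1 or H2-D1. Over all gene symbols of the table the motif was found for 3.46% (936 of 27025), and over those measured in the rim and mirrored rim for 3.02% (304 of 10063). A match describes these letters only.

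The rim lay between the core and the mirrored tissue in the values that drew it and in 2 lists without the rule's genes, given here as examples. Other lists did not lie between, such as the homeostatic astrocyte list at 5243, 5780 and 5380 CPM over core, rim and mirrored rim. The 6 genes of the rule summed to 1550 CPM in the core, 334 in the rim, 190 in the outer band and 165 in the mirrored rim. By block of 5 by 5 bins, the core ran from 700 CPM upward with a median of 1322, and the rim had a median of 339. At the threshold, 670 core bins had block values of 700 to under 800, 857 rim bins had 600 to under 700, and 497 rim bins reached 700 in patches too small to count as core. At the outer limit, the 273 rim bins in the farthest row of distances summed to 238 CPM and the 281 bins just beyond it to 274. Markers of monocytes and macrophages ran 2066, 426, 114 and 116 CPM over core, rim, outer band and mirrored rim, and genes of synaptic vesicle release ran 3365, 7578, 11844 and 12712. Genes of phagocytes are expressed with the 6 genes of the rule, so their drop from core to rim follows from how the areas were drawn. The rim held 8087949 UMIs, a median of 846 per bin, against 687 in the mirrored rim and 489 in the core.

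Seen as a whole, the rim was not matched to its mirror image in anatomy. Structures of the lateral ventricle, hippocampus and thalamus were present in unequal amounts, and 10.5% of rim bins but 0.837% of mirrored bins were choroid plexus, meaning that at least 1% of their UMIs came from its 10 marker genes. Transthyretin (Ttr), the main secreted protein of that tissue, stood at 28279.6 CPM against 1494. The 15 genes with the highest ratios were taken among those with at least 200 UMIs. Of these 15, 12 were Prr32, Aqp1, Mfrp, Kcnj13, Clic6, Kcne2, F5, Kl, Folr1, Cldn2, Ttr and Slc4a5, all known from the choroid plexus, and the other 3 were Rsad2, Lcn2 and Penk. The 10 lowest by the same minimum, which included Iyd, Prkcd, Tnnt1, Ramp3 and Cabp7, held several genes known from thalamus or hippocampus. Prkcd, a kinase of thalamic relay neurons, stood at 47.2 CPM against 702. All 8 thalamic markers were at least 2-fold lower, with a median log2 ratio of -1.79. In addition, 915 mirrored bins (11.4%) lay inside the opposite patch that passed the core threshold, 600 of them in the middle portion when the rim is divided by array row into 3 portions of similar size, 315 in the dorsal portion and none in the ventral portion.

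Over the whole rim, 1216 of 12713 genes (9.57%) were at least 2-fold higher than in the mirrored rim and 329 (2.59%) at least 2-fold lower. In the interferon-stimulated list 15 of 16 genes were at least 2-fold higher, with a median log2 ratio of 1.83 against 0.09 over all genes. The monocyte and macrophage list stood at 1.72 (5 of 7), the chemokine list at 1.57 (6 of 10) and the fibroblast list at 1.23 (7 of 10). Summed over all members, measured or not, the chemokine list stood at 539 against 447 CPM. The monocyte and macrophage list summed to 426 against 116 CPM. Choroid plexus genes were at 4.32 (10 of 10). Reactive astrocyte genes stood at 0.88 (9 of 21) and complement genes at 0.91 (6 of 13). Synaptic vesicle genes were lower in 16 of 16 cases, at -0.69, although only Unc13a was past 2-fold, and excitatory cortical neuron genes stood at -0.34.

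The part of the rim above array row 320, in the cortex dorsal to the corpus callosum, was picked out after the values had been seen. It was matched more closely in choroid plexus and thalamic transcripts but not in the sum of the hippocampal list. It held 1387 rim bins with 1756890 UMIs and 1387 mirrored bins with 1559071, with no choroid plexus bins on either side, none of the opposite patch, and bins rich in myelin transcripts at 2.81% and 2.60%. The 8 thalamic markers summed to 180.4 against 157 CPM there (413 against 1823 over the whole rim), and the 8 hippocampal markers to 225 against 84.0 (342 against 393). Only 2 of these 8 hippocampal markers were measured there, and 1 was at least 2-fold higher. Wfs1, a member of that list, ran from 56.7 to 573 CPM over rim blocks and from 10.7 to 28.7 over mirrored blocks. Whether hippocampal tissue was present there was not tested. The 6 genes of the rule stood there at 392 and 64.1 CPM. Of 9413 genes measured, 700 (7.44%) were at least 2-fold higher in the cortical part of the rim and 115 (1.22%) at least 2-fold lower. List counts given below for this part are to be read beside these shares. The 15 highest among genes with at least 200 UMIs were Cxcl10, Tgm1, Isg15, Irf7, Ccl12, Vim, S100a11, Hmox1, Ifit3, Ifit3b, Rtp4, Zfp36, Tagln2, C4b and Mgp, and the 10 lowest were Pcp4, Coro6, Lmo3, Efna5, Tnnc1, Pip4k2a, Neurod6, Rab3b, Zbtb16 and Cnih3. Values below are from this part unless stated otherwise, as CPM and as log2 ratios over the mirrored rim with their intervals. Its bands of 64 µm by distance from the core did not cover the same columns, 10 to 92 in the nearest and 82 to 103 in the farthest. Distance and position therefore cannot be told apart in the gradients given below.

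**Figure D2:**
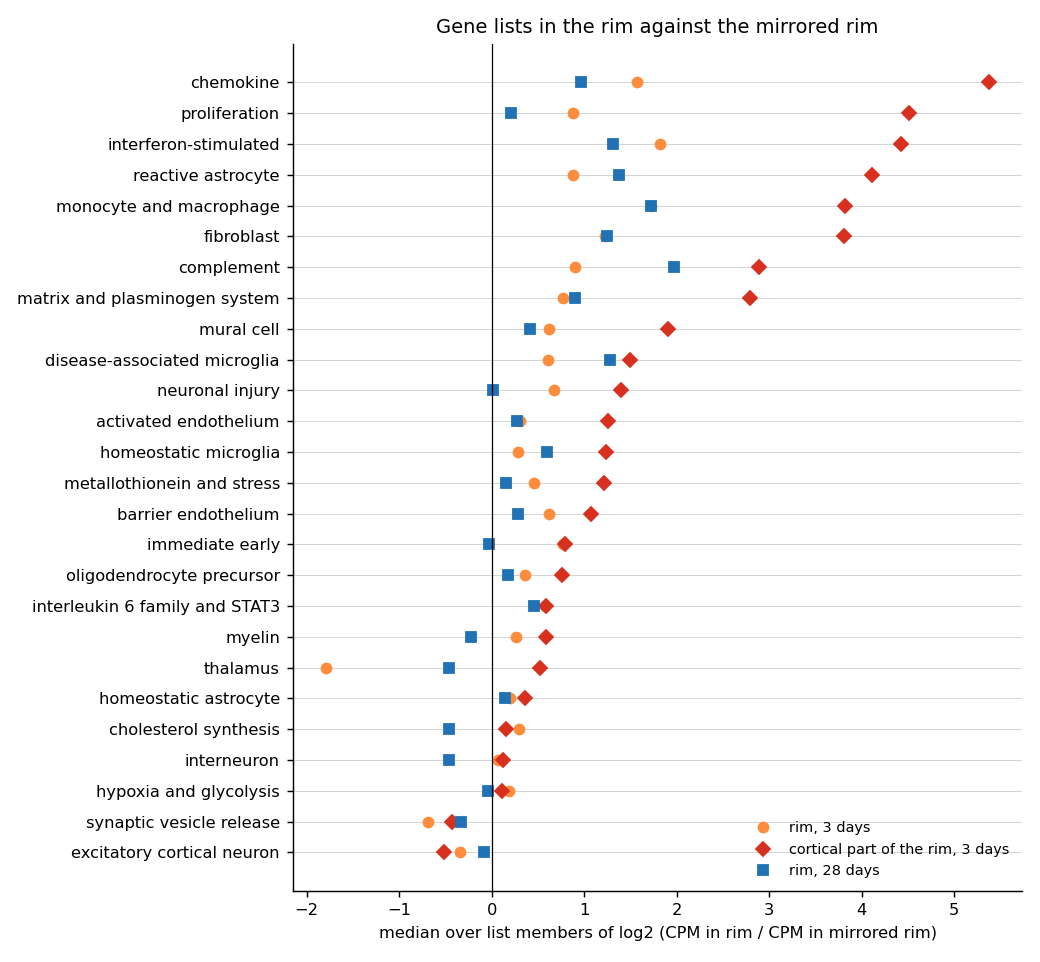
Median log2 ratio of CPM, rim over mirrored rim, for each gene list (points on the horizontal axis), in the whole rim at 3 days (circles), its cortical part (diamonds) and the rim at 28 days (squares). In the cortical part the interferon-stimulated list, with all 16 members measured, stood at 4.42, the medians of the chemokine and proliferation lists rested on 8 and 4 of 13 members and that of the reactive astrocyte list on 11 of 22, and the synaptic and excitatory neuron lists below 0 in all 3.

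Interferon-stimulated genes were higher in the cortical rim without exception, and their sum was higher there than in the core. All 16 were at least 2-fold above the mirrored rim, with a median log2 ratio of 4.42 against 0.01 over all genes, and 13 had been counted at no more than 17 UMIs in the mirrored bins. Summed over the list, they stood at 1397 CPM in the core, at 1300.5, 2250.5, 2512 and 2802 in successive rim bands of 64 µm going outward, at 1239.5 over the whole outer band out to 512 µm and at 141.8 in the mirrored rim. The outer band averages a decline, since its first steps of 32 µm still held 2333 and 2302 CPM. Against the mirrored position of each band the list medians were 3.58, 4.07, 4.24 and 4.22. The farthest of these bands was present only medially, at columns 82 to 103. Over the same 4 bands the 6 genes of the rule stood at 372, 428, 426 and 351 CPM and markers of monocytes and macrophages at 787, 476, 331 and 383, and their part in the interferon values was not tested. Isg15, a ubiquitin-like protein attached to other proteins during antiviral responses, was counted 467 times in the rim and 2 times in the mirrored rim, 266 against 1.28 CPM (log2 7.37, 5.83 to 10.74). Its 8 rim blocks ran from 37.3 to 488 CPM with a median of 219, and all of them exceeded the highest mirrored block, 4.85. Going outward, its bands stood at 141, 355, 305 and 389 CPM. Ifit3, an antiviral protein, stood at 339 against 10.9 CPM (4.92, 4.27 to 5.75). It climbed from 131 CPM in the band next to the core to 618 in the farthest band, with 110.4 in the core itself. Its close copy Ifit3b stood at 4.76 (3.79 to 6.18) on the log2 scale, and reads of such near-identical genes, H2-K1 and H2-D1 among them, may be shared between them. Usp18, which removes Isg15 from proteins and dampens interferon receptor signalling, was counted 154 times in the rim and not at all in the mirrored rim, at least 45.6-fold higher when 3 counts are taken as the floor.

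Transcription factors of the pathway were higher as well. Stat2 stood at 204 against 38.5 CPM (2.40, 2.01 to 2.83), and Irf9, its partner in the complex that binds the motif shown above, at 74.0 against 10.3 (2.81, 2.10 to 3.70). Irf7, itself induced by interferon, was counted 238 times against 1 (7.14, 5.23 to 13.03). Rsad2, an enzyme that makes an antiviral nucleotide, was counted 185 times against 1 (6.78, 4.86 to 12.67). For Stat2 all 8 rim blocks lay above the highest mirrored block, and for Ifit3 and Irf7 7 of 8 did, the remaining block having no count. Members that present antigen or restrict viruses at the membrane were higher too. H2-K1, a class I heavy chain, stood at 29.6 against 8.98 CPM (1.68, 0.85 to 2.69), the light chain B2m at 68.9 against 20.5 (1.73, 1.17 to 2.36), and Bst2, which tethers budding virus, at 96.2 against 8.98 (3.37, 2.63 to 4.32). H2-K1 was the member with the least even pattern, with 4 of 8 rim blocks above every mirrored block.

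**Figure D3:**
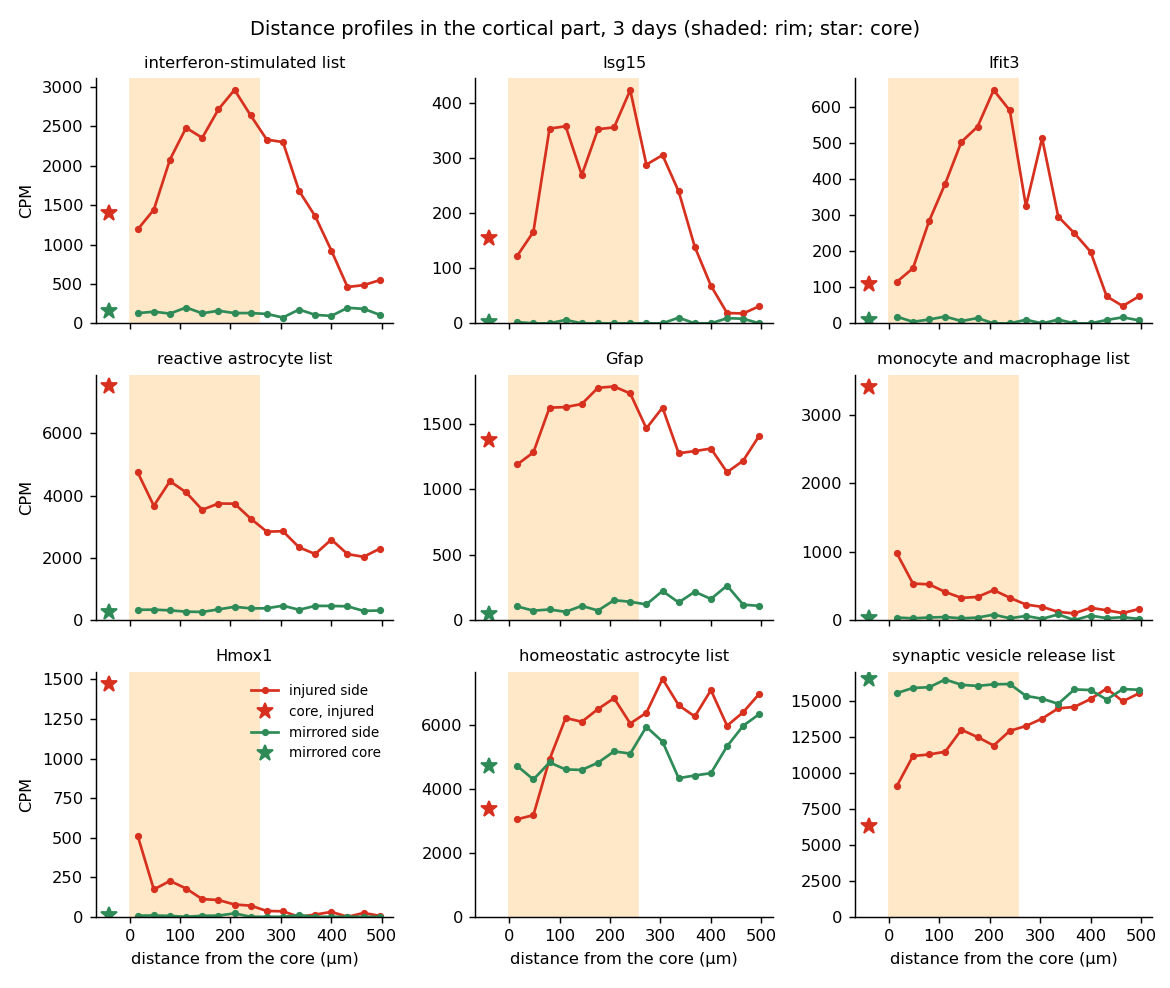
CPM (vertical axes, from 0) against distance from the core (µm) in the cortical part, on the injured side (red) and at mirrored positions (green), with stars for the core and shading for the rim. The interferon-stimulated list was highest in the rim, at 2965.5 CPM in the step from 192 to 224 µm. It was still at 2333 and 2302 CPM in the first steps of 32 µm beyond the rim before it declined. Monocyte and macrophage genes dropped from the core outward, and so did Hmox1, which is a member of that list. Synaptic genes were lower than at mirrored positions across the rim, at 9086 against 15543 CPM in the first 32 µm.

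A search over genes with at least 200 UMIs found few that were highest in the rim itself. Of 4523 genes with at least 200 UMIs in the cortical part, 11 (0.243%) were at least 1.5-fold higher in the rim than in the core, in the outer band and in the mirrored rim. Of these, 5 belonged to the 16 genes of the interferon-stimulated list, among them Stat2, Irf7, Isg15 and Ifit3. Summed over the whole cortical rim, that list stood at 2021 CPM against 1397 in the core. Ifit2, Rtp4 and the GTPase Irgm1 are outside that list and are known from other work to be induced by interferon, a description given after they had been found. Irgm1, which acts on vacuoles holding pathogens, stood at 169.9 CPM in the core, 336 in the rim, 212 in the outer band and 29.5 in the mirrored rim. The other 3, Rasl10a, Islr2 and Cpne6, had values in the mirrored rim between 57.7 and 125.1 CPM and ratios below 2-fold. Among the 8 of these genes with a promoter in the table, 4 held the motif. Over the whole rim the same criterion picked 198 of 10251 genes (1.93%), led by the choroid plexus genes Kcnj13, Wdr86, Tmem72, Folr1 and Mfrp. There the interferon-stimulated list summed to 1195 CPM in the core and to 952, 974, 897 and 869 in the 4 rim bands, so that no band exceeded the core.

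**Figure D4:**
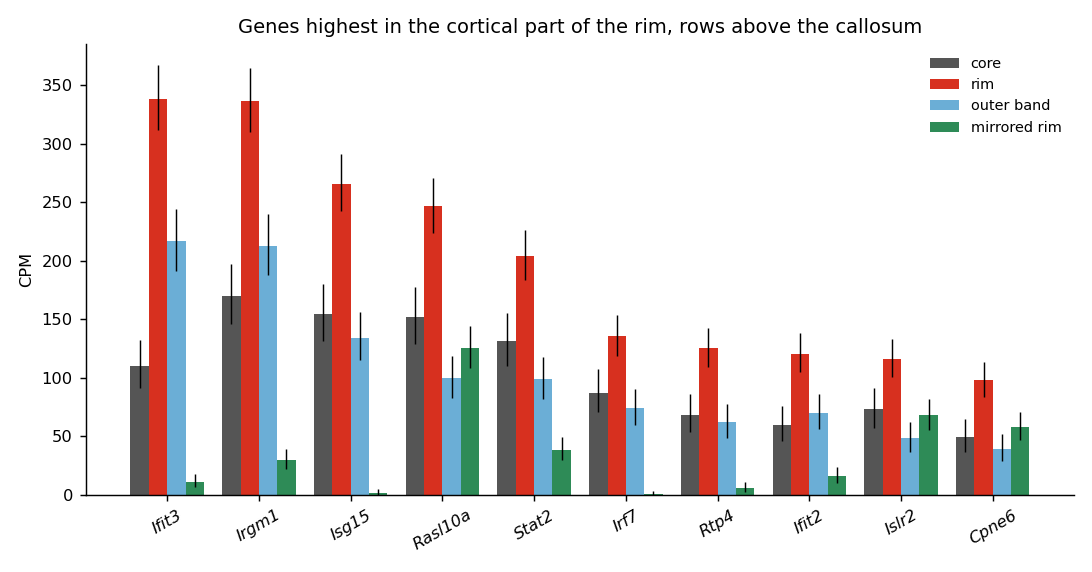
CPM (vertical axis, from 0) of 10 of the 11 genes that were at least 1.5-fold higher in the cortical part of the rim than in core, outer band and mirrored rim. Bars give 1 value per area with exact 95% Poisson intervals for counting error, and Ifit3, the highest bar, stood at 339 CPM in the rim against 110.4 in the core.

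Several chemokines that call in lymphocytes and monocytes were nearly undetected in the mirrored rim and readily counted in the cortical rim. Over all 13 members the chemokine list summed to 1075 against 574 CPM, of which the neuronal Cx3cl1 gave 302 and 449.6, and 8 members were measured. Cxcl10 was counted 346 times against 0, at least 102-fold higher. Its level was 24.96 CPM in the core and 51.3, 149, 339.6 and 428 in the bands going outward, with 143 in the outer band. It was uneven along the rim, from 0 to 685 CPM over blocks with a median of 88.4. The monocyte attractant Ccl12 was counted 377 times against 3 (6.58, 5.24 to 9.09) and was present in all 8 blocks, between 99.5 and 384 CPM. Ccl2, which acts on the same receptor, stood at 50.7 CPM against 0.641, and Ccl4, made by activated microglia and macrophages, at 51.8 against 0. Of the remaining measured members, Cxcl14 stood at 0.52 (0.22 to 0.83), and Cx3cl1, made by neurons and read by microglia, was lower (302 against 449.6 CPM; -0.58, -0.74 to -0.41) with no rim block above the highest mirrored one. The neutrophil attractants Cxcl1 and Cxcl2 had 1 and 0 counts in the cortical rim. Of the T cell markers, Cd3e, Cd3d, Cd3g and Cd2 were not counted there, which at this depth allows up to 3 counts of each, while Cd8a had 3 counts against 0 and Cd4 3 against 1. The neutrophil markers S100a8 and S100a9 had 14 and 8 counts, most of them in the band from 128 to 192 µm.

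Reactive astrocyte genes were higher throughout the cortical rim. Of 22 members 11 were measured, and of these 10 were at least 2-fold higher, with a median log2 ratio of 4.11. The list summed to 7509 CPM in the core, 4286, 4312, 3631 and 3500.4 in the bands going outward, 2397 in the outer band and 329 in the mirrored rim. Gfap, the intermediate filament of astrocytes, stood at 1505 against 96.9 CPM (3.95, 3.72 to 4.20), and its lowest rim block, 754, exceeded its highest mirrored block, 307. Gfap was higher in the outer rim bands, at up to 1757 CPM, than in the core (1378). Its rim blocks ran from 754 to 3630 CPM, and the part that position has in this rise was not tested. Vim, another filament gene that macrophages and vessels also express, had the opposite gradient, with 3009 CPM in the core and 1117, 884, 754 and 798 going outward (5.07, 4.65 to 5.56 over the mirrored rim).

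Other members of this list marked shorter distances. Lcn2, an iron-binding acute-phase protein, was counted 152 times against 0, at least 45.0-fold higher, and went from 109.8 CPM beside the core to 51.5 in the farthest band and 3.22 in the outer band. Tgm1, a transglutaminase, was counted 305 times against 1 (7.498, 5.59 to 13.39), with 231, 244, 115 and 19.3 CPM in the bands. Serpina3n, a secreted protease inhibitor, stood at 437 against 33.4 CPM (3.70, 3.30 to 4.14), close to its core value of 464. The inhibitor of metalloproteinases Timp1 (108 against 3.85) and the hyaluronan receptor Cd44 (59.8 against 1.28) were each highest in the core. S100a10 was the measured member under 2-fold, at 0.97 (0.73 to 1.22). In the interleukin 6 family, whose receptors signal to astrocytes through Stat3, 7 of 16 members were measured, and the ligands Il6 and Osm were under 50 counts. The median was 0.59, with 2 of 7 at least 2-fold higher, and all members summed to 976 against 497 CPM. Stat3 stood at 2.51 (2.12 to 2.95) and its target Cebpd at 3.71 (2.96 to 4.70), with every rim block above every mirrored block for both.

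Genes of resting astrocyte function were divided. In the homeostatic list 3 of 16 were at least 2-fold higher, beside 7.44% of all genes, none at least 2-fold lower, and the median was 0.36. The water channel Aqp4 (2.14, 1.86 to 2.43), the folate enzyme Aldh1l1 (1.23, 0.98 to 1.501) and the potassium channel Kcnj10 (1.04, 0.78 to 1.32) were the 3 higher genes. The glutamate transporter Slc1a2 was lower, at 1015 against 1379.7 CPM (-0.44, -0.53 to -0.35), as was the glycolytic enzyme Aldoc (-0.37, -0.45 to -0.29). Of the rim bands, the one next to the core had the lowest level of both. Slc1a2 stood at 713 CPM in the first band and 1318 in the band from 128 to 192 µm, and Aldoc at 817 and 1807. The homeostatic list as a whole summed to 3106, 5470.1, 6270.2 and 6438 CPM in the bands, against 3358 in the core and 4719 in the mirrored rim. Against the mirrored position of each band the list medians were -0.20, 0.47, 0.62 and 0.42, so that the band next to the core was the one below its mirrored level, while Gfap there stood at 1228 CPM.

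**Figure D5:**
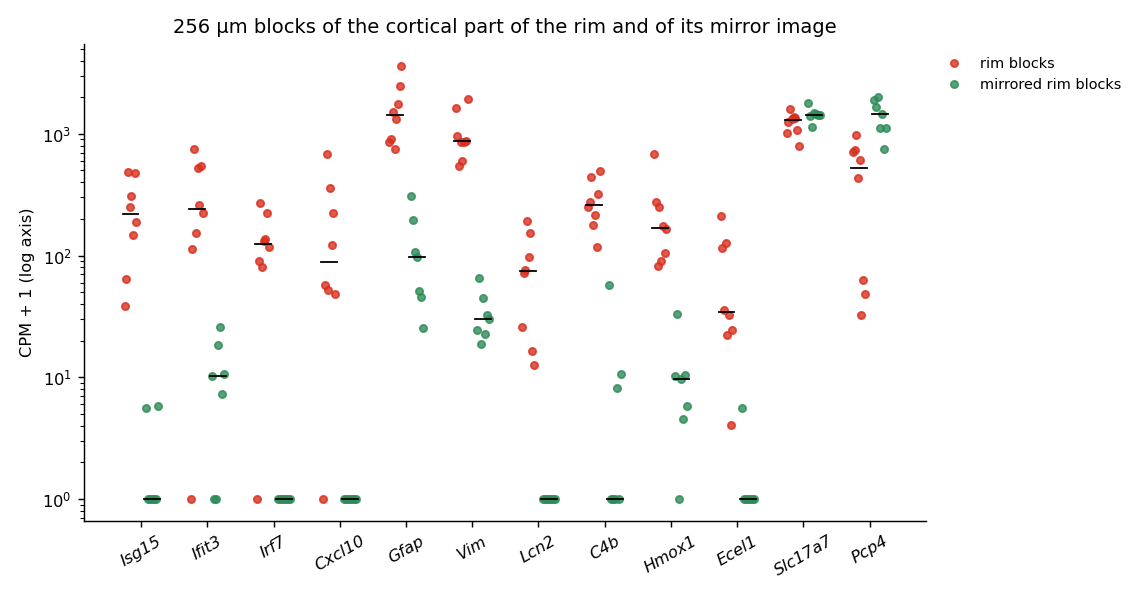
CPM plus 1 on a log axis for 12 genes in each of the 8 blocks of 256 µm in the cortical rim (red) and the 7 blocks of the mirrored rim (green), with lines at the medians. Isg15, Gfap, Vim, Lcn2, C4b and Hmox1 did not overlap between the sides, Slc17a7 overlapped, and Pcp4 was mostly lower in the rim. Lcn2 had no counts in any mirrored block, so any count in a rim block set it apart.

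Genes of microglia and complement were higher, and as genes of phagocytes they are not independent of the rule. Of the homeostatic microglia genes 6 of 8 were at least 2-fold higher (median 1.24), and all 11 members summed to 779.8 against 272 CPM. The growth factor receptor Csf1r stood at 1.31 (0.93 to 1.72), Tmem119 at 2.74 (1.80 to 3.99) and Fcrls at 3.002 (2.50 to 3.59), whereas P2ry12, the receptor by which microglia sense released ADP, stood at 18.2 against 16.04 CPM, a difference not detectable at this depth (0.18, -0.62 to 0.999). The 17 members of the disease-associated microglia list summed to 4872 against 3301 CPM. Of these genes 8 of 11 were at least 2-fold higher (median 1.495), among them the adaptor Tyrobp (2.26, 1.79 to 2.79) and the tetraspanins Cd9 (2.64, 2.33 to 2.98) and Cd63 (2.49, 2.14 to 2.88). Apoe, which astrocytes also make, was slightly lower (-0.29, -0.37 to -0.20), and the late phagocyte gene Cst7 was counted 7 times. The complement starter subunits C1qa (2.60, 2.28 to 2.95) and C1qb (2.50, 2.13 to 2.90) did not overlap between rim and mirrored blocks, and neither did the receptor C3ar1 (4.35, 3.22 to 6.13). C4b, which astrocytes and oligodendrocytes induce after injury, stood at 262 against 13.5 CPM (4.25, 3.65 to 4.99) and at 226 in the core, while C3 had 11 counts in the cortical rim.

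Genes of the monocyte and macrophage list, likewise expressed with the rule's genes, had their highest sum in the core and, within the rim, next to it. The list summed to 787, 476, 331 and 383 CPM in the bands, against 3415 in the core and 37.8 in the mirrored rim, and 9 of its 13 members, Ccr2, Arg1, Plac8 and Chil3 among them, were below 50 counts over both sides. Of that sum, its members Hmox1 and Fn1, which are also described on their own, gave 228 and 162 CPM. Arg1, an enzyme of alternatively activated macrophages, stood at 179 CPM in the core, 21.4 in the first band and 2.52 in the second. Hmox1, which degrades heme, stood at 1474 CPM in the core and 366, 206, 109 and 74.0 in the bands, with 228 over the rim against 7.06 in the mirrored rim (4.95, 4.16 to 6.03). Cell cycle genes summed to 350.1 against 88.5 CPM over the 13 members of their list, of which 9 were under 50 counts. The replication clamp Pcna stood at 0.96 (0.62 to 1.32). Mki67, present in dividing cells, was counted 79 times against 1 (5.56, 3.61 to 11.45), with 51.3, 52.9, 43.2 and 22.5 CPM in the bands and 123 in the core. Top2a, which untangles chromosomes, was counted 57 times against 0, at least 16.9-fold higher.

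Vessel genes were higher, with differences among the layers of the wall. Of the barrier endothelium genes 5 of 9 were at least 2-fold higher and 1 at least 2-fold lower (median 1.07), and all 15 members summed to 661 against 375 CPM. The tight junction gene Cldn5 stood at 132 against 42.3 CPM (1.63, 1.24 to 2.06) and the junctional adhesion gene Pecam1 at 80.8 against 8.98 (3.12, 2.38 to 4.08). The efflux pump Abcb1a stood at 1.07 (0.43 to 1.78), the amino acid carrier Slc7a5 at 0.24 (-0.11 to 0.60), and the transferrin receptor Tfrc, which neurons also express, was lower (-1.14, -1.56 to -0.73). Of the genes of activated endothelium 3 of 6 were at least 2-fold higher (median 1.26), and all 14 members summed to 373 against 203 CPM. Among them the adhesion molecule Vcam1, also made by other cells, stood at 36.4 against 4.49 CPM (2.93, 1.89 to 4.39) with all 8 blocks above the mirrored ones, whereas Sele, the selectin of acutely inflamed endothelium, had 1 count. Pericyte and smooth muscle genes summed to 421 against 119 CPM over 11 members and had a median of 1.91 (5 of 6), from Rgs5 at 0.77 (0.39 to 1.17) to Tagln at 3.99 (3.15 to 5.14), and the smooth muscle actin gene Acta2 was uneven, running from 0 to 705 CPM with a median of 8.25. Transcripts of red blood cells were present in places, with Hba-a2, a globin chain, at 37.1, 5.03, 92.1 and 0 CPM in the bands against 1.92 in the mirrored rim.

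Fibroblast and matrix genes were uneven too. The 10 members of the fibroblast list summed to 297 against 95.6 CPM. Of them 5 of 6 were at least 2-fold higher (median 3.81), yet Col1a1 ran from 0 to 587 CPM over rim blocks with a median of 2.63, and 2 of 8 blocks lay above the mirrored range, so the value of that gene rested on few places. Col6a1 was lower (-0.96, -1.41 to -0.53), although it was higher over the whole rim (1.28). Fibronectin (Fn1), by contrast, stood at 162 against 23.1 CPM (2.79, 2.30 to 3.35) with every block above the mirrored ones. The 21 matrix and plasminogen genes summed to 1394 against 555 CPM. Of them 7 of 11 were at least 2-fold higher (median 2.79). Tnc, a matrix glycoprotein of wounds, was highest at the inner edge, at 743 CPM in the core and 189.6, 20.1, 11.5 and 0 in the bands. The perineuronal net component Bcan was lower (60.3 against 115 CPM; -0.93, -1.29 to -0.57), while Ncan stood at 0.11 (-0.21 to 0.43).

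Genes of neuronal transmission were lower by small factors. Several genes of neuronal injury were higher and, of the rim bands, stood highest in the one next to the core. Synaptic vesicle genes had a median of -0.42, with 14 of 16 below the mirrored value and none past 2-fold. They summed to 6330 CPM in the core, 9982, 11360.5, 12776 and 12412 in the bands, 14712 in the outer band and 15944 in the mirrored rim, and the medians against mirrored bands were -0.54, -0.46, -0.34 and -0.34. Snap25, a fusion protein of synaptic vesicles, stood at 3366 against 5092 CPM (-0.60, -0.65 to -0.55). Fewer neurons and less RNA per neuron cannot be told apart in such sums, and CPM of neuronal genes also depends on how much other transcripts contribute. The vesicular glutamate transporter Slc17a7, found in nearly all cortical excitatory neurons, stood at 1251 against 1476 CPM (-0.24, -0.32 to -0.15), with overlapping blocks. Over the excitatory list the median was -0.51, with 4 of 19 at least 2-fold lower and 2 higher, beside 1.22% and 7.44% of all genes. The higher pair were Cux2 (1.40, 0.89 to 1.97) and Rasgrf2 (1.41, 1.17 to 1.66), both of upper layers, and the 4 lower were Neurod6 (-1.23, -1.51 to -0.95), Lamp5 (-1.17, -1.46 to -0.88), Fezf2 (-1.08, -1.46 to -0.72) and Foxp2 (-1.45, -2.38 to -0.63), which belong to several layers. Genes of upper layers thus stood on both sides of 0, and the part that unequal layers have in the neuronal values was not tested. Pcp4, a calmodulin regulator strong in deep layers, was the lowest gene among those with at least 200 counts, at 445 against 1351 CPM (-1.60, -1.72 to -1.48).

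Among genes that neurons switch on after axon damage, Atf3, Ecel1 and Sprr1a were, of the rim bands, highest in the first 64 µm. Atf3, a stress transcription factor, stood at 47.2 against 1.92 CPM (4.404, 3.02 to 6.92). In the bands it stood at 97.0, 10.1, 17.3 and 16.1 CPM, and in the core at 96.0, about as high as in the first band. Ecel1, a peptidase of injured neurons, was counted 115 times against 1 (6.09, 4.17 to 11.99), with 135, 12.6, 23.0 and 22.5 CPM in the bands and 95.02 in the core. Sprr1a, a regeneration gene, was counted 46 times against 0, at least 13.6-fold higher, with 61.3 CPM in the first band and none beyond 128 µm. In contrast, the growth cone protein Gap43 stood at -0.20 (-0.36 to -0.030). In all, 6 of 11 genes of this list were at least 2-fold higher (median 1.40), and its 15 members summed to 2455 against 1825 CPM. Immediate early genes, which report recent activity or stress, had a median of 0.79 (7 of 15). Npas4, induced in neurons by activity, stood at 262 against 52.0 CPM (2.33, 1.99 to 2.70) and had no gradient, with 248, 274, 259 and 283 CPM in the bands and 248 in the outer band. Fos (1.86, 1.503 to 2.24), Fosb (3.25, 2.23 to 4.70) and Junb (1.36, 1.06 to 1.67) were also higher in all 8 blocks than in any mirrored block. Arc (0.18, 0.024 to 0.34), Egr1 (-0.25, -0.38 to -0.12) and Nr4a1 (-0.17, -0.40 to 0.062) were not past 2-fold, and Homer1 was lower (-0.76, -0.93 to -0.59). Inhibitory neuron genes had a median of 0.12 with none of 9 past 2-fold, and Gad1 stood at 0.12 (-0.18 to 0.42).

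Of the myelin genes 3 of 12 were at least 2-fold higher, beside 7.44% of all genes (median 0.59). The myelin protein Mbp was lower (-0.37, -0.49 to -0.26), although 11 of the 12 genes were above the mirrored value, and Mobp stood close to it (0.092, -0.048 to 0.23). Transferrin (Trf) was at 803 against 117 CPM (2.77, 2.55 to 3.005) with all 8 blocks above the mirrored range, and the junction protein Cldn11 at 2.09 (1.86 to 2.33) with 7. Among oligodendrocyte precursor genes 4 of 10 were at least 2-fold higher (median 0.76). The lineage factors Olig1 (1.78, 1.26 to 2.37) and Olig2 (1.75, 1.20 to 2.38) and the receptor of committed precursors Gpr17 (1.99, 1.30 to 2.79) were among these, and Gpr17 stood at 8.64 CPM in the core. Metallothionein and stress genes had a median of 1.21 (7 of 10), and the metal-binding Mt2 was higher (752 against 127 CPM; 2.56, 2.35 to 2.79), more so than Mt1 (0.75, 0.63 to 0.88) or the neural form Mt3 (0.37, 0.27 to 0.47). Genes of hypoxia and glycolysis (median 0.12, 1 of 9) and of cholesterol synthesis (median 0.15, none of 13) stood near the median of all genes, and the hypoxia-induced growth factor Vegfa stood at -0.42 (-0.87 to 0.024).

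Along the rim, the same groups differed in size and some in direction. In the ventral portion all 9 reactive astrocyte genes measured there, of 22, were at least 2-fold higher, beside 9.71% of all genes, with a median of 4.74, and Gfap stood at 2091 against 35.0 CPM. In the middle portion 2 of 18 were at least 2-fold higher, beside 9.43% of all genes, with a median of 0.12, and Gfap stood at 2619 against 2158 CPM. Of the 915 mirrored bins in the opposite patch 600 belonged to the middle portion, and 28.2% of its rim bins were choroid plexus. The interferon-stimulated list had medians of 1.62 (9 of 11) ventrally and 0.85 (6 of 14) in the middle, beside 4.42 in the cortical part, where all 16 members were measured. The homeostatic microglia and neuronal injury lists stood below 0 in the middle portion, at -0.44 and -0.33. The chemokine list stood at -0.56 ventrally, where 3 of 13 members were measured, and at 0.23 in the middle, where 5 were, with none at least 2-fold higher in either. Excitatory neuron genes stood at -1.67 in the middle portion, with 8 of 15 at least 2-fold lower beside 8.73% of all genes. In the dorsal portion, which holds the cortical part, 15 of 16 interferon-stimulated genes were at least 2-fold higher (median 2.29). Of all genes there, 5.51% were at least 2-fold higher and 1.33% at least 2-fold lower. Cxcl10 was counted 20 times in the ventral and 10 times in the middle portion. Tissue type and position cannot be told apart in this section, since each portion held other brain regions.

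The rim of the 28-day section, drawn by the same rule around 2 core patches and mirrored at column 240, held 10233 bins, and its values are given side by side without a comparison because each time point was 1 section. There 657 of 12214 genes (5.38%) were at least 2-fold higher than in its mirrored rim and 60 (0.491%) lower. This rim was not matched to its mirror image in anatomy either, with all 10 choroid plexus genes at least 2-fold higher (median 2.85). The complement list stood at a median of 1.97 (9 of 9), the monocyte and macrophage list at 1.72 (4 of 5), the reactive astrocyte list at 1.38 (9 of 13), the interferon-stimulated list at 1.31 (12 of 15) and the disease-associated microglia list at 1.28 (11 of 17). Cst7 stood at 4.88 at 28 days and -0.36 over the whole rim at 3 days, and Apoe at 1.17 and 0.31. Over the settings tried, these 3-day values ran from -1.18 to 1.19 for Cst7 and from -0.33 to 0.47 for Apoe. The 3-day mirrored rim also held 915 bins of the opposite patch. The proliferation list stood at 0.21 and 0.88, with 4 and 12 of its 13 members measured, Mki67 at -0.57 and 1.39, and Npas4 at -0.44 and 2.23. Cortical values with the mirror line at column 150 in place of 130 left the interferon-stimulated list at 3.92 (16 of 16, beside 7.91% of all genes) and the reactive astrocyte list at 5.61.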

How the data were processed

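Spatial transcripts had been counted by the authors with Space Ranger 4.0.1 (file header) against the mouse genome mm10 with a mouse probe set, and the deposited values were raw UMI counts per gene and 16 µm bin for 19070 genes, in 1 section from 1 mouse per time point. The sections held 120615873 UMIs (3 days, median 836 per bin) and 82422389 (28 days, median 596), and 2350 and 2273 bins under 100 UMIs were left out.

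Counts were summed over areas and divided by the area total (CPM). Log2 ratios carried a pseudocount of 0.5 UMI, with exact conditional binomial 95% intervals for counting error. Captured molecules carry UMIs, but bins of 1 section are not independent samples, so no test between groups or areas was made. Genes with at least 50 UMIs over both areas were measured. Named genes were the 15 highest and 10 lowest ratios among genes with at least 200 UMIs, genes at least 1.5-fold above core, outer band and mirrored rim, and members of the lists. Ratios and intervals were tested on simulated data, and the rule for core and rim on a synthetic section, whereas list medians were not tested in this way. The members, lists and rule were chosen with earlier results of these data known, and the cortical part, the ventral, middle and dorsal portions and the column 150 were chosen after the data were seen. A floor of 3 counts gave the bounds for genes at 0. Promoter sequences were those of RefSeq genes on GRCm38.p6, matched by symbol. Some list members are not reported here by name, and lists were counted whole. Alternatives covered the mirror line, the core threshold, the rim width, count minimums, choroid plexus bins, the reference area and TMM scaling. TMM factors came from edgeR 4.0.16 under R 4.3.3, intervals from scipy 1.17.1, sums from numpy 2.4.6 and pandas 2.3.3 and plots from matplotlib 3.10.9, under Python 3.11.15.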

Additional observations from a re-analysis of the deposited data

Results flagged for a closer look

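A patch of 1816 bins on the side opposite to the impact also reached the threshold that drew the core. It is listed because the signal lay on the reference side, partly inside the mirrored rim. Its bins held a median of 359 UMIs and 1186 CPM of the 6 rule genes, 51.2% of them were rich in myelin transcripts, and the myelin and reactive astrocyte lists summed to 21962 and 12958 CPM. Of the mirrored rim, 915 bins lay inside it, none of them cortical. Without the patch the reactive astrocyte median over the whole rim was 1.25 in place of 0.88.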

How the results depend on the processing

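Over 29 settings the count of genes at least 2-fold higher ran from 591 to 2069 (1216 as reported), that of lower genes from 115 to 970 (329) and that of genes highest in the rim from 6 to 558 (198). Where values moved or turned (named where they were at least 2-fold as reported), the cause was not tested. Scaling by TMM gave a reactive astrocyte median of 0.78 (0.88 as reported), and scaling by UMIs per bin gave 1.04 with 328 genes highest in the rim. With all bins of the other side as reference, 2069 genes were higher, 561 lower and 318 highest in the rim, with medians of 2.30 for reactive astrocyte and -0.97 for excitatory neuron genes (-0.34 as reported). With the outer band as reference 216 were lower, the astrocyte median was 2.10, and Cyp26b1 (0.76), Npy2r (0.74) and Gad2 (-0.027) turned. Without choroid plexus bins 764 were higher and 33 highest in the rim, and Car12 turned (-0.60). At a core threshold of 1000 CPM 503 were lower and 50 highest in the rim, with medians of 1.19 (astrocyte), 0.91 (barrier endothelium, 0.62 as reported) and -0.60 (excitatory). At 500 CPM the counts were 730, 194 and 116, and the astrocyte median 0.64. A minimum of 10 UMIs per gene gave 558 genes highest in the rim, and one of 200 UMIs gave 626 higher genes. The astrocyte median was 1.28 with the mirror line 12 columns nearer the injury, 1.09 at column 150, where the excitatory median was -0.63 and Gad2 (-0.030) and the hippocampal list (0.13) turned, 1.25 without the opposite patch, 1.11 within 8 bins (20 highest in the rim) and 0.69 without the nearest 4 bins.

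The cortical part alone gave 700 higher, 115 lower and 11 highest in the rim, with medians of 4.11 (astrocyte) and 1.07 (barrier). Cabp7 (0.21), Col6a1 (-0.96), Prkcd (1.54), Ttr (-0.36) and the choroid plexus (-0.36), hippocampal (1.37) and thalamus (0.53) lists turned. In the cortical part these lists rested on 1, 2 and 3 measured members. With the mirror line at column 150 it gave 747, 186 and 14, medians of 5.61, 1.52 and -0.60 (astrocyte, barrier, excitatory), and Cck (0.067), Col6a1 (-0.53), Prkcd (2.62), Ttr (-0.40) and the choroid plexus (-0.40) and thalamus (0.44) lists turned. The dorsal portion gave 591, 143 and 6 and an astrocyte median of 1.39, and Calml4 (-2.32), Col6a1 (-0.44), Foxj1 (-1.15), Rarres2 (-0.57), Rora (0.16), Tcf7l2 (0.35) and the choroid plexus (-0.89), ependyma (-2.20) and thalamus (0.16) lists turned. The middle portion gave 970 lower, 35 highest in the rim, and medians of 0.12 (astrocyte) and -1.67 (excitatory), and several lists above 0 but under 2-fold as reported stood below 0 there, among them homeostatic microglia (-0.44), neuronal injury (-0.33), interneuron (-1.21) and myelin (-0.25). The ventral portion gave 18 highest in the rim and 4.74 (astrocyte), and Cabp7 (0.84) and the hippocampal list (0.84) turned, as did the chemokine list (-0.56), with 3 of 13 members measured there. Without the dorsal portion 616 were lower and 336 highest in the rim (excitatory -1.38), without the middle portion 197 and 11 (barrier 0.92, astrocyte 1.503), and without the ventral portion the astrocyte median was 0.61 and Lef1 (0.016) turned. Leaving aside the astrocyte, excitatory and barrier lists, 766 of 803 values of list medians kept their direction, and of single genes 3997 of 4206. Besides the turned values named here, 312 and 1857 of these lay outside the counting interval of the reported value. Rim and mirrored rim were compared as sums over areas and not bin by bin, and groups of 1 section each leave no pairs of animals to compare. A gene with few counts in the reference, such as Irf7, has a wide interval, and neither section shows the spread between animals.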

Other observations

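Several genes outside the lists stood out in the cortical part of the rim by the rule for named genes. S100a11, a calcium-binding protein, stood at 114 against 3.21 CPM (5.02, 3.91 to 6.80), and the actin-binding Tagln2 at 118.4 against 5.77 (4.28, 3.41 to 5.51). Zfp36, which speeds the decay of cytokine mRNAs, stood at 131 against 6.41 CPM (4.29, 3.45 to 5.44) with 7 of 8 rim blocks above every mirrored block. Mgp, an inhibitor of calcification made by vessels and meninges, stood at 205 against 10.9 CPM and ran from 0 to 2079 over rim blocks. Among the lowest genes, Coro6 stood at 45.0 against 128 CPM (-1.4997, -1.90 to -1.12), the ephrin Efna5 at 45.0 against 124 (-1.46, -1.86 to -1.08) and the vesicle GTPase Rab3b at 63.7 against 148 (-1.21, -1.55 to -0.88). As with Pcp4, the part that unequal cortical layers have in these values was not tested.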
